A study of Mus musculus with 6 samples.

Results

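The 32 genes described here belong to cholesterol synthesis and transport. They are given by a list of gene symbols whose rule uses no measured value, and comprise 18 enzymes of the synthesis pathway and 14 genes of sterol regulation, transport, storage and turnover. All 32 were found among the 24532 genes of the table and all 32 passed the filter on low counts, which kept 15774 genes. Messenger RNA was sequenced from the nucleus accumbens core, a ventral striatal region of reward and motivation, in 3 samples titled control and 3 titled ethanol, all from wild-type male mice whose strain the labels do not give. The labels place the animals in adolescence, between postnatal days 35 and 55. They describe contextual fear conditioning, then 6 injections of 20% ethanol in saline into the abdomen within 6 h (1.8 g/kg first and 1.2 g/kg for each later one), extinction trials, and every-other-day drinking for 27 days, with tissue taken 24 h later. The 27 days of drinking are longer than the age span given, so the age at tissue collection cannot be settled from the labels. The treatment label reads ethanol exposure for the control samples as well. Injections and drinking are described for all samples alike, so the groups rest on the titles alone, and which of these the controls received cannot be settled from the labels. The labels do not say whether the samples came from different animals, and the spread behind each p-value may thus be technical only.

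The brain makes its own cholesterol, because lipoproteins of the blood do not cross the blood-brain barrier. Oligodendrocytes use much of it for myelin, astrocytes supply neurons, and neurons dispose of the excess by hydroxylating it. The pathway runs from acetyl-CoA through mevalonate and isoprenoid diphosphates to squalene and then, through lanosterol, to cholesterol. Its enzymes are under the transcription factors SREBP-1 and SREBP-2, which the escort protein SCAP carries to the Golgi when sterols are low and the INSIG proteins hold back when sterols are high. The liver X receptors (LXR) sense oxysterols and switch on export genes.

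Promoters bear on the comparison because the enzymes are known to share SREBP control. RefSeq promoters (GRCm38.p6, the assembly of mm10) were found for 26 of the 32 genes, 15 of them enzymes. In the 250 bases before a start, read on both strands, CCAAT (the core bound by NF-Y, a partner of SREBP) was found for 14 of the 15 enzymes, Acat2 being the exception, and for 7 of the 11 other genes, against 37.5% of all 27025 genes and 33.8% of all 32851 promoters. GGGCGG, the core bound by Sp1, was found for 14 of the 15 enzymes and 8 of the 11 others, against 35.4% of genes. The E-box CACGTG was found for 3 enzymes and 3 others (6.86% of genes). The classic sterol regulatory element was found in none of the 26 (0.0814% of genes). Its looser form, TCACNCCAC, was found in Hmgcs1 alone of the 26 (1.22% of genes). ATCACCCCA, which overlaps it and was searched after the Srebf2 sequence had been seen, was found in Srebf2 alone (0.278% of genes). Some genes have several promoters, and a gene was counted if any of them held the letters. These are matches of letters and not measured binding sites. The shares are over all genes with a promoter, and none was computed for expressed genes alone or for promoters of like base content.

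The 4 sequences below are shown because Hmgcs1 and Cyp51 stand for the enzymes, whose levels differed little between groups, and Srebf2 and Soat1 had the widest differences. Each runs 5′ to 3′ on the gene's strand and starts 250 bases before the RefSeq start. Where an exon of a protein-coding GENCODE M21 transcript begins earlier than that start, the sequence ends before it. Capitals mark matches to the motifs named above, on either strand.
Hmgcs1, chr13:119690101-119690350, plus strand: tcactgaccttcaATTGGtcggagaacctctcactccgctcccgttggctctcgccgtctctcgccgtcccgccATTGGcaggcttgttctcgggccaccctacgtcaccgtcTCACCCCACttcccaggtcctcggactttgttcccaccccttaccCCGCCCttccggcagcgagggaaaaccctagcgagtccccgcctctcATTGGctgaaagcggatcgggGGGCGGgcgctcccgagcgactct
Cyp51, chr5:4104747-4104947, minus strand: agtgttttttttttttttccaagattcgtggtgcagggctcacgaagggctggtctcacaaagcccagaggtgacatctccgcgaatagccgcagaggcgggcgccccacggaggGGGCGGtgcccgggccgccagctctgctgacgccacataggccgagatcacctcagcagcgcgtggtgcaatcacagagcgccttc
Srebf2, chr15:82147019-82147180, plus strand: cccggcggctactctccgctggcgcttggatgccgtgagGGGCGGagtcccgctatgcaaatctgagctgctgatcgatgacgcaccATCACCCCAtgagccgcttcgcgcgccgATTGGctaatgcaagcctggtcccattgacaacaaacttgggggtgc
Soat1, chr1:156474332-156474578, minus strand: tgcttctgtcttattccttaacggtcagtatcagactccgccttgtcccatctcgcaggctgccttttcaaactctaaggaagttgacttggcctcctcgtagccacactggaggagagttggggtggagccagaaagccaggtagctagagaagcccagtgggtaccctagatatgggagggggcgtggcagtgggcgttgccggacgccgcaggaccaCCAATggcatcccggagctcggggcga
Hmgcs1 held 3 matches to CCAAT, 2 to GGGCGG and 1 to TCACNCCAC. The Soat1 stretch held 1 match to CCAAT and none to the other letters, and the Cyp51 stretch, which is cut short of the start, 1 match to GGGCGG and none to CCAAT. The CCAAT counted above for Cyp51 lies outside the stretch shown.

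Levels can be compared between genes only per length, for which the deposited FPKM values (fragments per kilobase of transcript and 1000000 fragments) were summed over a gene's transcripts. Cyp46a1, the neuronal hydroxylase that turns cholesterol into 24-hydroxycholesterol, was the most abundant of the 32, at 72.9 ± 7.27 FPKM (SD over all 6 libraries). Of the mevalonate enzymes, Fdps, Pmvk and Hmgcs1 came next, with Fdps at 68.2 ± 6.67, Pmvk at 56.5 ± 6.78 and Hmgcs1 at 49.99 ± 7.68 FPKM, whose ranges over the libraries overlapped their neighbours in that order. The other mevalonate enzymes were lower, from Acat2 at 26.9 FPKM through Mvk at 16.1 and Mvd at 15.7 to Idi1 at 7.62 FPKM. Msmo1, a demethylating oxidase, at 46.98 ± 4.83 FPKM, was the most abundant enzyme after squalene. Hsd17b7, a ketosteroid reductase of the same stretch, was the least abundant enzyme, at 2.80 ± 0.544 FPKM, between 2.20 and 3.74 in every library. Soat1, Abca1 and the LXRα gene Nr1h3 formed the low end, at 2.24 ± 0.555, 1.95 ± 0.631 and 1.82 ± 0.215 FPKM. Their ranges overlapped, so their order is not set by these data. Lss, the cyclase that makes lanosterol, was at 5.21 ± 0.945 FPKM, in a range that overlapped that of Idi1.

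**Figure D1:**
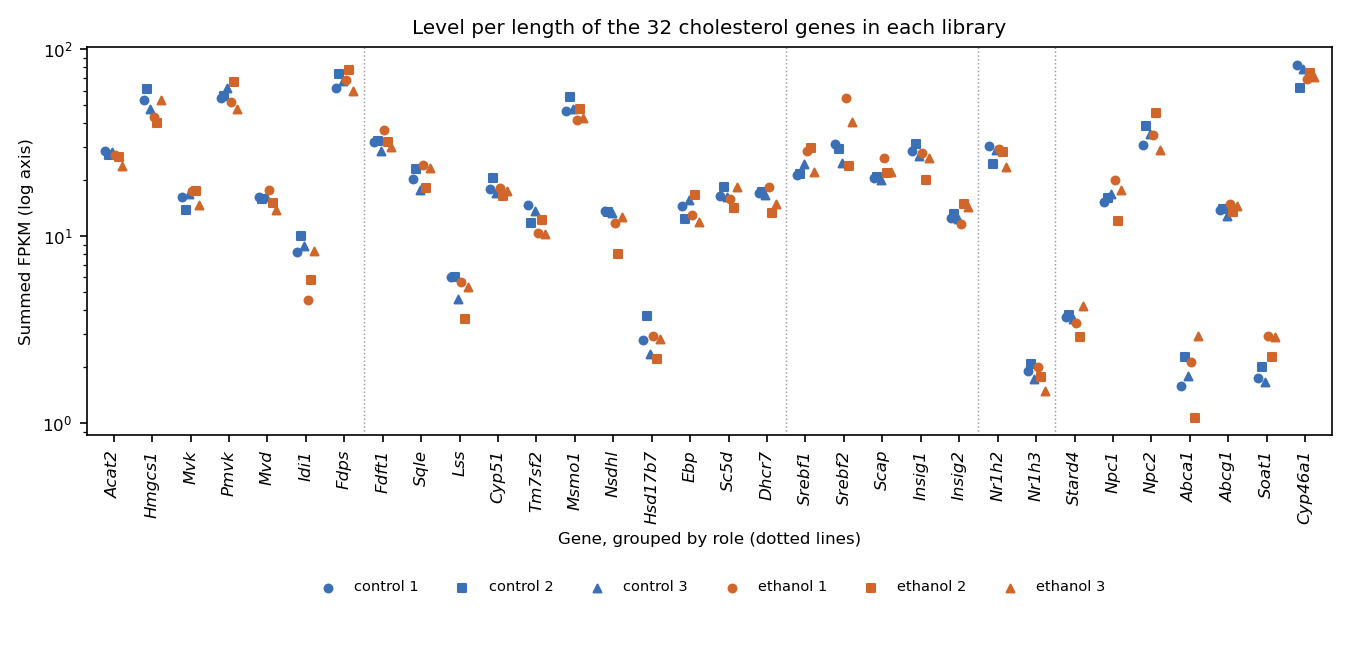
Summed FPKM (log axis) of the 32 genes in each of the 6 libraries, grouped by role between dotted lines, with blue for control, orange for ethanol and a marker shape for each replicate number. Cyp46a1 and Fdps lie highest, at means of 72.9 and 68.2 FPKM, Nr1h3 lowest at 1.82, and the 6 libraries of most genes lie close together.

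Between groups, no gene of the 32 passed edgeR's quasi-likelihood test after adjustment over all genes tested (smallest adjusted p = 0.419). The same held for the whole table, where 0% of 15774 genes were called. DESeq2 and limma-voom also called 0 of the 32, while over the table DESeq2 called 0.925% of the genes with an adjusted p, and limma-voom 0%. At an unadjusted p under 0.05 edgeR had 1 of the 32, Soat1, where 10.7% of all genes were past that level. At an unadjusted p under 0.1 it had 5 of the 32 (Soat1, Idi1, Srebf2, Srebf1 and Scap), where 19% of all genes were. DESeq2 had Srebf2 and Soat1 at an unadjusted p under 0.05, where 10.5% of all genes were, and limma-voom Idi1 and Soat1, where 11.1% of all genes were. Groups did not overlap for 4 of the 32, all with ethanol above (Soat1, Scap, Insig2 and Abcg1), against 17.8% of all genes in either direction, 9.35% with ethanol above and 8.41% with ethanol below. The members' counts were thus near or below what the whole table gives. Of the 18 enzymes 10 had a log2 fold change above 0 with a median of 0.01, and of the 14 other genes 12 with a median of 0.18, beside 52.7% of all genes and a median of 0.02. Among tested genes with a mean of at least 10 CPM, 5911 of 10286 were above 0, with a median of 0.05. Of those 10286, 1193 had groups that did not overlap with ethanol above. With libraries scaled by total counts only, 4 of the 18 enzymes (median -0.08) and 9 of the 14 other genes (median 0.09) were above 0. The median over all genes was then -0.06, so directions of small differences turn with the scaling.

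**Figure D2:**
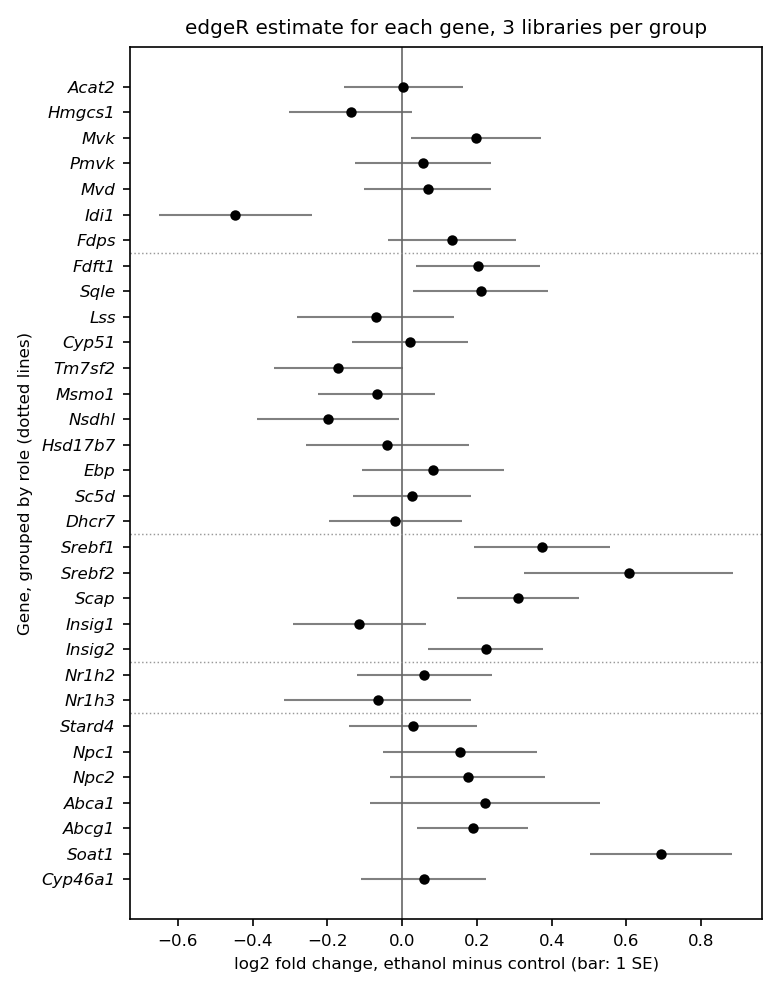
Log2 fold change of ethanol against control for each gene with 1 SE on either side, from edgeR on 3 libraries per group. The enzymes of the upper 2 blocks gather around 0, except Idi1 at -0.45, and Soat1 at 0.69 and Srebf2 at 0.61 lie farthest to the right.

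The mevalonate enzymes differed little between groups. Fdps, which makes farnesyl diphosphate, was at 90.9, 106 and 99.4 CPM (counts per 1000000 of the scaled library) in control 1, 2 and 3 and at 113, 122 and 89.8 CPM in ethanol 1, 2 and 3, a log2 fold change of 0.13 (SE 0.17). Ethanol 3 was below and ethanol 1 and 2 above every control, so the groups overlapped. Mvk, mevalonate kinase, was at 32.4, 27.2 and 33.7 CPM in control and 39.1, 37.7 and 30.03 CPM in ethanol (log2 fold change 0.20, SE 0.17), with ethanol 3 inside the control range. Idi1, the isomerase that activates isopentenyl diphosphate, had the lowest log2 fold change of the 32. It was at 27.7, 33.2 and 30.05 CPM in control and 17.3, 21.03 and 28.5 CPM in ethanol (log2 fold change -0.45, SE 0.21, edgeR adjusted p = 0.475). Ethanol 3 lay among the controls, so the 2 groups overlapped in that library alone. The fold change was -0.29 without ethanol 1, -0.66 without ethanol 3 and -0.29 with GC and length trends removed. The remaining mevalonate enzymes had log2 fold changes between -0.14 for Hmgcs1, the synthase that opens the pathway's committed part, and 0.07 for Mvd, the decarboxylase. Pmvk, the next kinase, had 0.06, and Acat2, here the cytosolic acetoacetyl-CoA thiolase and not a sterol acyltransferase, had 0.003.

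The sterol enzymes, from squalene synthase to the last reductases, also stayed within a narrow band, with log2 fold changes from -0.20 (Nsdhl) to 0.21 (Sqle) and none with groups that did not overlap. Sqle, squalene epoxidase, a rate-limiting step, was at 65.1, 72.7 and 57.5 CPM in control and 87.1, 62.96 and 75.9 CPM in ethanol (SE of the log2 fold change 0.18). Ethanol 2 lay inside the control range, and ethanol 1 and 3 above it. Fdft1, squalene synthase, was at 138, 139 and 125 CPM in control and 179, 149 and 134 CPM in ethanol (log2 fold change 0.20, SE 0.17), ethanol 3 again falling among the controls. Without ethanol 1 the log2 fold changes were 0.09 for Sqle and 0.08 for Fdft1. Msmo1 was at 100.0, 116 and 103 CPM in control and 100.0, 111 and 93.4 CPM in ethanol (log2 fold change -0.07, SE 0.16). Its lowest library was ethanol 3, ethanol 1 equalled the lowest control at this precision, and ethanol 2 lay among the controls. The demethylase gene Cyp51 had the smallest spread of the 18, an SD of 0.11 in log2 CPM over the 6 libraries, between 87.8 and 104 CPM. The sterol dehydrogenase gene Nsdhl was at 34.5 to 35.1 CPM in the 3 controls and in ethanol 1 and 3 at 34.5 and 33.9 CPM, with ethanol 2 alone low at 22.6 CPM. Lss had its lowest value in ethanol 2 too, 28.9 CPM against 34.4 to 47.4 in the others. The other members were Dhcr7 (7-dehydrocholesterol reductase, log2 fold change -0.02), Sc5d (the C5 desaturase, 0.03), Ebp (a sterol isomerase, 0.08), Hsd17b7 (-0.04) and Tm7sf2 (a C14 reductase, -0.17).

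Spread over the 6 libraries, groups ignored, was low for the enzymes. The SD of log2 CPM had a median of 0.18 over the 18, and 17 of them lay below 0.295, the median over all genes tested. The exception was Idi1, at 0.36. Abundant genes vary less in general: the median over the 10286 tested genes with a mean of at least 10 CPM was 0.246. Among the 14 other genes the median was 0.20, and Srebf2 (0.50), Abca1 (0.48) and Soat1 (0.41) had the widest spreads.

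**Figure D3:**
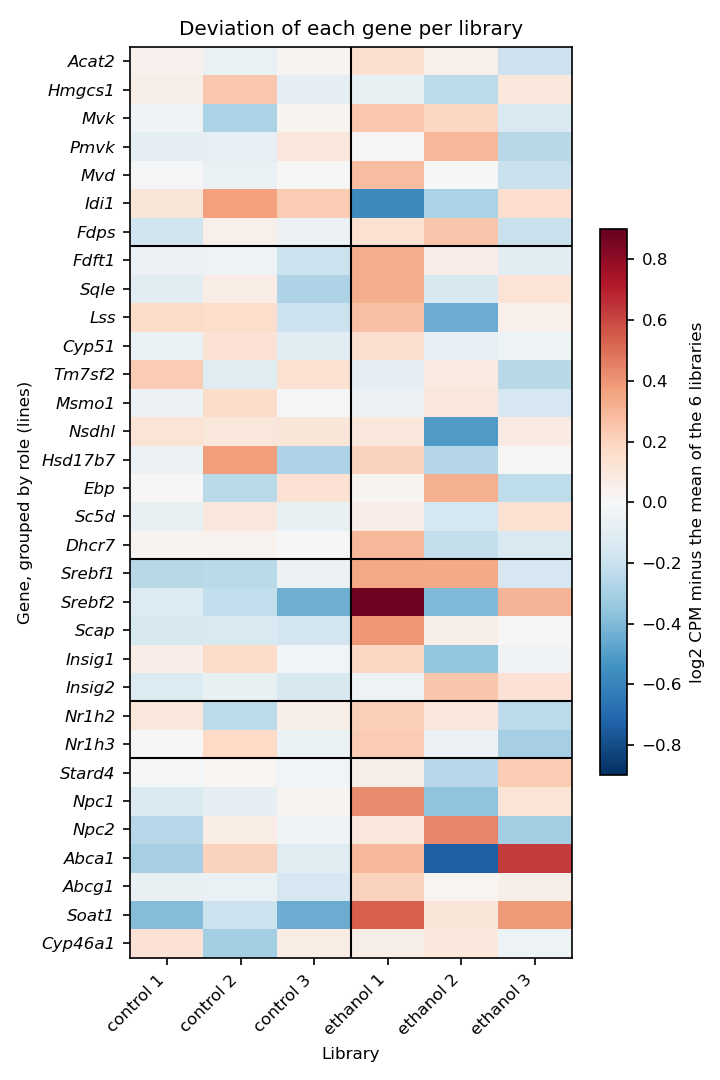
Log2 CPM of each gene in each library minus its mean over the 6 libraries, with red for above and blue for below the mean and the groups parted by the vertical line. Most enzyme rows are pale, Soat1 is blue in the 3 controls, and Srebf2 is red in ethanol 1 and 3 but blue in ethanol 2.

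Of the genes that control the SREBP pathway, 4 of 5 had values above 0 and none passed the test. Srebf2, which encodes SREBP-2, the main activator of the synthesis enzymes, was at 166, 155 and 133 CPM in control and 331, 137 and 223 CPM in ethanol (log2 fold change 0.61, SE 0.28, edgeR adjusted p = 0.475). Ethanol 1 and 3 were above every control, while ethanol 2 lay among the controls. The fold change was 0.25 without ethanol 1 (edgeR adjusted p = 0.909) and 0.86 without ethanol 2 (edgeR adjusted p = 0.0592). Without ethanol 2, 22.9% of all genes had an edgeR unadjusted p under 0.05. Srebf1, which encodes SREBP-1, was at 108, 108 and 124 CPM in control and 163, 163 and 115 CPM in ethanol (log2 fold change 0.38, SE 0.18). Here ethanol 3 was the library within the control range, so the 2 SREBP genes shared a high level in ethanol 1 and differed in ethanol 2 and 3. Scap was at 101, 101 and 98.97 CPM in control and 146, 116 and 112 CPM in ethanol (log2 fold change 0.31, SE 0.16). All 3 ethanol libraries were above the controls, which lay close together. The fold change was 0.18 without ethanol 1. Insig2 had a log2 fold change of 0.22 (SE 0.16), at 38.6 to 40.8 CPM in control and 41.2 to 50.6 CPM in ethanol. Insig1, itself a known SREBP target, was at 83.8 to 95.5 CPM in control and 67.05 to 96.98 CPM in ethanol (log2 fold change -0.12, SE 0.18).

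The LXR genes showed no difference beyond their spread. Nr1h2, which encodes LXRβ, was at 71.7, 56.6 and 69.01 CPM in control and 77.2, 71.6 and 56.8 CPM in ethanol (log2 fold change 0.06, SE 0.18). Nr1h3, which encodes LXRα, was at 4.17, 4.70 and 3.99 CPM in control and 4.88, 4.02 and 3.38 CPM in ethanol (log2 fold change -0.07, SE 0.25). For both genes the ethanol libraries lay on either side of the controls' median. An interval of 2 SE ran from -0.30 to 0.42 for Nr1h2 and from -0.56 to 0.43 for Nr1h3, so moderate differences remain possible. Per length, Nr1h2 (27.4 ± 2.85 FPKM) exceeded Nr1h3 in each library.

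Transport, storage and turnover genes had log2 fold changes above 0 in 7 of 7, from 0.03 to 0.69, beside 52.7% of all genes. Abca1, Cyp46a1, Npc1, Npc2 and Stard4 each changed sign when 1 library was left out. Soat1 encodes the acyltransferase that esterifies cholesterol for storage in lipid droplets. It was at 9.72, 11.1 and 9.32 CPM in control and 18.5, 13.7 and 16.6 CPM in ethanol. Every ethanol library was above every control, at 10.06 ± 0.946 against 16.2 ± 2.42 CPM (SD, n = 3 each). The log2 fold change was 0.69 (SE 0.19, edgeR unadjusted p = 0.00482, adjusted p = 0.419), which does not pass over all genes. It stayed between 0.59 and 0.79 when any 1 library was left out. The adjusted p was 0.101 with DESeq2 and 0.0592 in edgeR without ethanol 2, where 22.9% of all genes had an unadjusted p under 0.05. Without control 1, 2 or 3 the smallest edgeR adjusted p among the 14 transport and regulation genes was 0.743, 0.578 and 0.933. That smallest value was 0.897 without ethanol 1 and 0.196 without ethanol 3. Soat1 lies on mouse chromosome 1, from 156428108 to 156474328 in mm10, and the table gives it 1 transcript.

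Abca1, the LXR-driven exporter that loads cholesterol onto apolipoproteins, was the least steady transport gene. It was at 18.9, 26.8 and 21.5 CPM in control and 28.5, 13.9 and 35.9 CPM in ethanol (log2 fold change 0.22, SE 0.31). Ethanol 2 was the lowest and ethanol 3 the highest of the 6, and the value was -0.07 without ethanol 3 and 0.51 without ethanol 2. Abcg1, a related exporter, was tighter, at 88.2 to 93.8 CPM in control and 98.97 to 113 CPM in ethanol (log2 fold change 0.19, SE 0.15). Its 3 ethanol libraries lay above the 3 controls, and the value was 0.10 with total counts only and 0.08 with GC and length trends removed. Cyp46a1 was at 205, 151 and 195 CPM in control and 194, 199 and 181 CPM in ethanol (log2 fold change 0.06, SE 0.17), with all ethanol libraries inside the control range. Npc1 and Npc2 encode the membrane and the soluble protein that pass cholesterol out of lysosomes. Npc1 was at 92.6 to 103 CPM in control and 78.9 to 136 CPM in ethanol, and Npc2 at 117 to 146 and 113 to 188 CPM. The pair differed in ethanol 2, where Npc1 had its lowest value (78.9 CPM) and Npc2 its highest (188 CPM). Stard4, a cytosolic sterol carrier, was at 22.7 to 23.4 CPM in control and 19.3 to 27.1 CPM in ethanol.

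**Figure D4:**
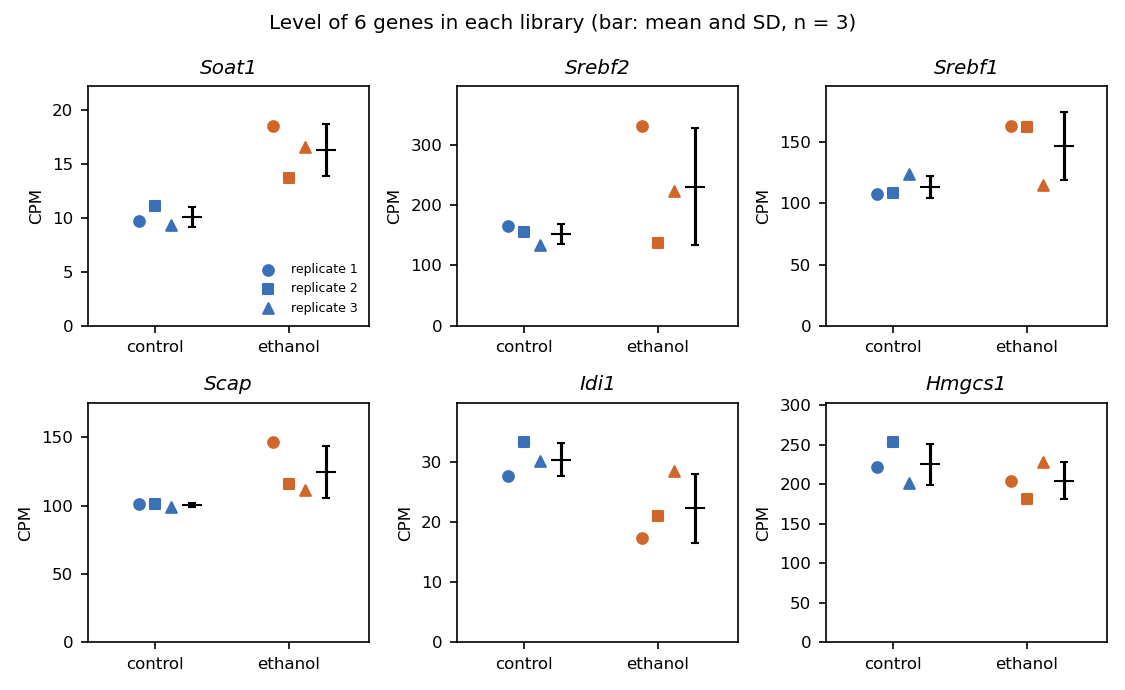
CPM of 6 genes in each library, control in blue and ethanol in orange, with a marker for each replicate number and black bars for mean and SD (n = 3). Soat1 and Scap have all ethanol points above the controls, Srebf2 and Srebf1 have 2 of 3 above, and Idi1 and Hmgcs1 overlap.

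To set synthesis against the other genes within each library, each gene's log2 CPM was centred on its mean over the 6 libraries and averaged over the genes of a set. The enzymes averaged 0.003, 0.05 and -0.03 in control 1, 2 and 3 and 0.10, -0.06 and -0.07 in ethanol 1, 2 and 3. The transport and regulation genes averaged -0.11, -0.07 and -0.11 in control and 0.28, -0.05 and 0.06 in ethanol. Synthesis minus transport was therefore 0.11, 0.12 and 0.08 in control and -0.18, -0.002 and -0.13 in ethanol, a difference between group means of -0.20 on the log2 scale. The control libraries all lay above the ethanol libraries, with ethanol 2 nearest to them. Library scaling cancels in this difference apart from the prior count, and no p is given because the genes were chosen by hand. In plain sums, the enzymes took 1162 to 1272 CPM in control and 1160 to 1306 CPM in ethanol, whereas the other genes took 1110 to 1137 CPM in control and 1221 to 1523 CPM in ethanol. Srebf2 alone supplied 331 of the 1523 CPM in ethanol 1.

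**Figure D5:**
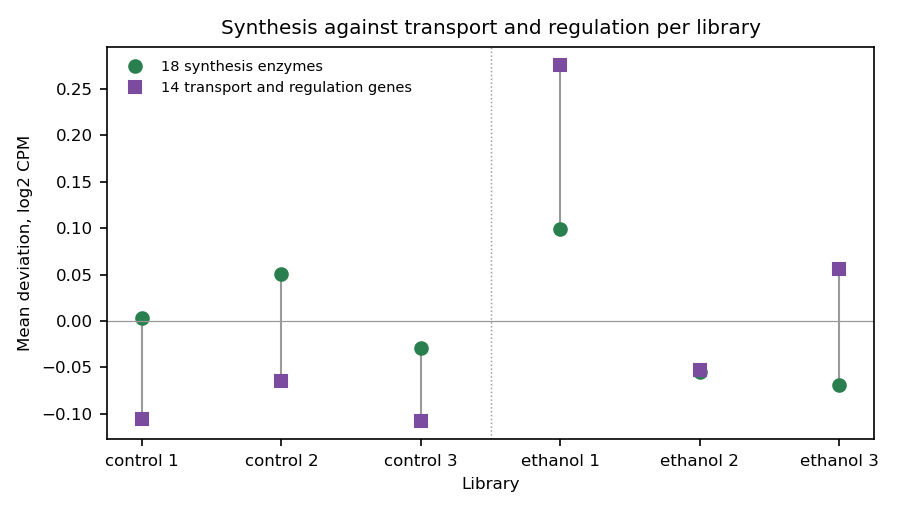
Mean deviation in log2 CPM of 18 synthesis enzymes (green circles) and 14 transport and regulation genes (purple squares) in each library, joined by a line. The circles lie above the squares in the 3 controls and below them in ethanol 1 and 3, and the 2 nearly coincide in ethanol 2.

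Reads of 11 of the 32 genes were divided among several RefSeq transcripts, and in 5 of them no transcript held 90% of the reads. Hmgcs1 was split into 2 variants, the larger with 57.9% of the reads (50.2% to 67.3% by library). The main Srebf1 transcript had 85.3%, and the other variant ranged from 0% of the reads in control 2 to 26.6% in ethanol 2. Mvk (80.1% in the leading variant) and Nr1h2 (62.9%, over 4 variants) were divided too. For Nr1h3 one variant had all reads in control 2 and 3 and 1.2% in ethanol 2. How the authors' counting divided sequence shared by variants is not stated, so only gene sums were compared.

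Genes next to this pathway were counted from lists of related genes. Of 14 genes of fatty acid and glycerolipid synthesis, which SREBP-1 is known to drive, 11 had log2 fold changes above 0 with a median of 0.14, and 4 had an unadjusted p under 0.05, all higher in ethanol (5.31% of all genes were). Gpam, which starts glycerolipid synthesis, was at 18.7, 19.4 and 15.4 CPM in control and 60.5, 16.04 and 40.3 CPM in ethanol (log2 fold change 1.13, SE 0.39). Fads2, a fatty acid desaturase, was at 72.7, 75.4 and 56.8 CPM in control and 197, 68.3 and 123 CPM in ethanol (0.92, SE 0.33). As with Srebf2, ethanol 1 was highest, ethanol 3 next and ethanol 2 among the controls. Acly, which makes cytosolic acetyl-CoA, and the desaturase gene Scd2 had log2 fold changes of 0.49 and 0.46, with all ethanol libraries above the controls. No gene of these lists passed over all genes in edgeR, and adjusted p-values of these 4 were 0.439 to 0.448.

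Of 22 genes of sterol uptake, transport and breakdown 21 were tested. Log2 fold changes were above 0 in 12, and 4 had an unadjusted p under 0.05, all lower in ethanol (5.34% of all genes were). Cyp27a1, the mitochondrial sterol 27-hydroxylase, was at 22.4, 22.4 and 27.1 CPM in control and 14.9, 17.8 and 15.6 CPM in ethanol (log2 fold change -0.58, SE 0.17, edgeR adjusted p = 0.419). Its groups did not overlap, unlike those of the neuronal hydroxylase Cyp46a1. Abca7, a transporter related to Abca1, had -0.47, the sterol-binding Stard5 -0.68, and the sterol carrier Gramd1c -1.04. Ch25h had at most 0.17 CPM and was not tested. Of 10 genes of isoprenoid branches and 6 tested of 7 of SREBP processing, none had an unadjusted p under 0.05. Their medians were 0.14 and 0.23.

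Libraries held 35898026 to 67399599 reads by the deposited counts, where 3 reads stand for 0.045 to 0.084 CPM. The 32 genes had at least 126 reads in every library. Markers of striatal projection neurons were present in all 6 libraries, summing to 1618 to 1949 CPM over 9 genes in control and 1577 to 3530 CPM in ethanol, the highest in ethanol 2. In bulk tissue, fewer cells of a type and less RNA per cell cannot be told apart. Of 8 astrocyte markers, 7 had log2 fold changes above 0, and none was at 0 CPM in any library. Their sum was 3287 to 3620 CPM in control and 3849 to 4702 CPM in ethanol, highest in ethanol 1. Ethanol 1 was also the highest library for Srebf2 and Soat1, and likewise for Acat2, Cyp51 and Nr1h2, whose groups differed little. Of 10 oligodendrocyte markers 8 were below 0, and their sum was 20509 to 24251 and 17117 to 22361 CPM. The 8 microglial markers summed to 499 to 643 CPM in control and 653, 874 and 529 CPM in ethanol 1, 2 and 3. Npc2 took the same order of ethanol libraries, as did Pmvk and Fdps. Of 5 markers of oligodendrocyte precursors, Gpr17 and Pdgfra were higher and Enpp6 lower in ethanol, at an edgeR unadjusted p under 0.05. Gpr17 was at 148, 97.2 and 113 CPM and Pdgfra at 71.5, 41.9 and 66.2 CPM in ethanol 1, 2 and 3. This order of ethanol libraries was also that of Srebf2 and Soat1, and of the enzymes Cyp51 and Dhcr7, whose groups differed little. Another precursor marker, Bcas1, took a different order, at 653, 647 and 530 CPM in ethanol 1, 2 and 3. These values were all below its controls (log2 fold change -0.25), while Cspg4 had 0.18 with groups that overlapped. The 5 precursor markers summed to 855 to 977 CPM in control and 763 to 935 CPM in ethanol. Of 5 endothelial markers Slco1a4 was lower at that level, and their sum was 159 to 196 and 152 to 168 CPM. Markers of cortical neurons summed to 73.5 to 328 CPM in control and 18.2 to 71.4 CPM in ethanol, those of meninges to 28.4 to 47.95 and 23.5 to 27.7 CPM, and those of choroid plexus to 12.4 to 19.8 CPM in all but control 3, at 412.5 CPM. The part of these cell types in the values of the 32 genes was not tested.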

How the data were processed

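The authors deposited 1 table with an estimated count of reads and an FPKM value for each of 36780 RefSeq transcripts and 6 samples, per the file headers. Build mm10 and bcl2fastq are named without versions in the submitters' processing notes, while for aligner and counter the sources used here give no name. Deposited counts equalled FPKM times length times library size rounded up, within 0.05 reads, for 100% of transcripts checked. Whole counts from which FPKM was computed would pass this check too, so whether they are estimates is not settled. If they were rounded up, rounding adds up to 1 read per transcript. Whether strand was used is not stated. Counts were summed by gene identifier. Genes were kept by filterByExpr (minimum count 10), scaled by TMM and tested two-sided with edgeR 4.0.16 (quasi-likelihood, group as the only term) in R 4.3.3, with Benjamini-Hochberg adjustment over 15774 genes and a threshold of 0.05. The standard error is the log2 fold change over the root of F. CPM used TMM-scaled libraries, and log2 CPM a prior count of 2. The deposited FPKM values served for levels between genes. DESeq2 1.42.0, limma 3.58.1 and other scalings, filters and left-out libraries were alternatives, and removal of GC and length trends (loess, span 0.3, 97% of genes matched) was added after seeing the data. The fits were tested on simulated data. Figures used matplotlib 3.10.9.

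Although the rule for the members uses no measured value, the members and lists were chosen with earlier results of these data known. Values in every library are given for members with an unadjusted p under 0.05 and, in each role group, for the 2 largest fold changes and the most abundant gene. Of related genes, those with an unadjusted p under 0.05 are named, at most 4 per list. One listed symbol had no row under that name and Ch25h was filtered out.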

Additional observations from a re-analysis of the deposited data

How the results depend on the processing

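edgeR called no gene of the table in either direction, and DESeq2 called 52 higher and 98 lower, none of them among the 32. With 1 library left out, edgeR called 0 to 201 genes higher and 0 to 10 lower, the highest numbers without ethanol 2, and 1 higher without control 1. Over 15 alternatives, 14 of the 32 genes never changed sign and 18 did. The log2 fold changes that turned were, with total counts only, Acat2 -0.085, Pmvk -0.032, Mvd -0.022, Cyp51 -0.064, Ebp -0.005, Sc5d -0.054, Nr1h2 -0.031, Stard4 -0.048 and Cyp46a1 -0.026; with a mean CPM of at least 1, Acat2 -0.01; with limma-voom, Acat2 -0.002; with sample weights in limma-voom, Acat2 -0.067, Pmvk -0.078, Lss 0.017, Hsd17b7 0.102, Ebp -0.072, Nr1h2 -0.064 and Cyp46a1 -0.018; and with GC and length trends removed, Acat2 -0.04 and Hsd17b7 0.023. With 1 library left out, ranges that cross 0 were Abca1 -0.073 to 0.513, Acat2 -0.069 to 0.095, Cyp46a1 -0.062 to 0.143, Cyp51 -0.048 to 0.098, Dhcr7 -0.192 to 0.066, Ebp -0.079 to 0.21, Hsd17b7 -0.182 to 0.162, Insig1 -0.247 to 0.002, Lss -0.235 to 0.093, Msmo1 -0.149 to 0.004, Mvd -0.068 to 0.179, Npc1 -0.042 to 0.327, Npc2 -0.036 to 0.347, Nr1h2 -0.036 to 0.181, Nr1h3 -0.211 to 0.057, Pmvk -0.108 to 0.185, Sc5d -0.033 to 0.096, Stard4 -0.084 to 0.139. Ranges that kept their sign but moved by over 1.5 times were Fdft1 0.08 to 0.299, Fdps 0.026 to 0.256, Hmgcs1 -0.22 to -0.045, Idi1 -0.659 to -0.29, Insig2 0.139 to 0.299, Mvk 0.111 to 0.308, Nsdhl -0.301 to -0.038, Scap 0.181 to 0.386, Sqle 0.093 to 0.311, Srebf2 0.252 to 0.859 and Tm7sf2 -0.272 to -0.089. The cause was not tested. Synthesis minus transport, a difference of -0.20 between groups, stayed between -0.25 and -0.17 when a library was left out and between -0.22 and -0.19 with medians, FPKM, abundant genes only, the most abundant enzymes removed or trends removed. Group means differed by -0.02 for the enzymes and by 0.19 for the transport and regulation genes, so removing enzymes could move it little. No alternative removed Soat1, Srebf2, Srebf1 or Scap. These had the largest log2 fold changes of the 14 transport and regulation genes (0.69, 0.61, 0.38 and 0.31, against a median of 0.18). The difference thus rests in part on these genes, which the alternatives above do not probe, and how far was not tested.

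The labels do not state whether replicate numbers pair the samples. Same-numbered deviations correlated at 0.146, -0.031 and -0.017, and differently numbered ones between -0.217 and 0.188. With so few libraries these values cannot settle whether same-numbered samples share an origin. A replicate block left 0 genes called, with Acat2 at -0.003.

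Depth did not limit detection of the 32 genes, while 3 samples per group limit the precision, with a median SE of 0.18 in log2 fold change.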
